A study of Amaranthus palmeri with 48 samples.

Results

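The leaf response to the herbicide lactofen was described in Amaranthus palmeri (Palmer amaranth), a weed of field crops, as the change common to a resistant line (KCTR in the sample titles) and a susceptible line (KSS). The comparison took the 6 libraries of lactofen-treated leaves of batch 3 (3 resistant, 3 susceptible) and set them against the 6 libraries of untreated leaves of the same batch (3 resistant, 3 susceptible). These are 12 of the 48 libraries of the series, chosen by treatment, batch and line from the sample titles, with no measured value used. All of them came from seed-grown plants kept in a growth chamber, and leaf RNA was taken 6 h after treatment. Per the labels, plants were sprayed when 10 to 12 cm tall. The dose and the basis of the resistance are not stated there, nor whether untreated plants were sprayed with a blank. The other 36 libraries held 2,4-D, mesotrione, atrazine and chlorsulfuron treatments with untreated plants of their own batches.

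Lactofen is a diphenyl ether herbicide. It blocks protoporphyrinogen oxidase, the last enzyme shared by chlorophyll and haem synthesis, which belong to the tetrapyrroles. The substrate that piles up leaks out of the plastid and is oxidised to protoporphyrin, which in light passes energy to oxygen. The singlet oxygen formed attacks membrane lipids, and treated leaves wilt, bleach and die back within days. Chlorophyll-binding and carbon-fixation proteins normally account for a large part of leaf messenger RNA, and stress-induced genes for a small part. The files do not pair their gene identifiers with names, so neither these groups nor the leaf label could be checked by marker genes, and genes are given by identifier.

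Libraries held 41828563 to 59908233 counts after lactofen and 44129786 to 57653081 counts in untreated leaves. Both treatments were first checked for plants that recur, through genes that were on (at least 2 CPM, counts scaled per 1e6 with TMM factors) in some plants of a trio and off (at most 0.2 CPM) in others, under both treatments. In the resistant line 26 such genes were found, and each lactofen library matched the untreated library of its own number at 100% of them and the other numbers at 30.8 to 34.6%. In the susceptible line 24 such genes were found. There lactofen 3 matched untreated 3 at 95.8%, but lactofen 7 also matched untreated 3, at 91.7% against 12.5% for its own number. Lactofen 5 matched untreated 7 at 91.7%, against 37.5% for its own number. Lactofen 3 and 7 had the same state at 95.8% of the genes, so the 6 lactofen libraries carried 5 plant patterns. The chi-square between their counts was 92.7 per gene, within the 72.2 to 406 found for all pairs of libraries of a group, where sampling noise alone gives about 1. They were therefore not treated as 1 library deposited a second time, and both were kept as the titles number them, but whether they came from separate plants was not tested. Summing them into 1 library was added as an alternative after the data were seen, and its values are given where they change a call.

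Leaves treated with lactofen stood far from untreated leaves in both lines. On the first principal component of log2 CPM, which held 67.9% of the variance, the 6 lactofen libraries scored from 94.7 to 165.4 and the 6 untreated libraries from -136 to -110.9. Across genes, log2 CPM correlated at 0.881 to 0.974 between lactofen libraries, at 0.925 to 0.957 between untreated libraries and at 0.6 to 0.777 between the treatments. These correlations describe libraries that share genes and a batch. The 3 highest PC1 scores after lactofen were 165.4 in susceptible 7, 149.5 in susceptible 3 and 117.7 in resistant 8. Susceptible 5, at 94.7, scored with resistant 4 (94.7) and resistant 1 (104.2). Its log2 CPM correlated at 0.913 to 0.93 with the resistant lactofen libraries and at 0.883 to 0.894 with susceptible 3 and 7. The median SD of log2 CPM within a line and treatment was 0.44 after lactofen and 0.36 in untreated leaves. The larger SD was that after lactofen for 59.4% of genes, which are not independent of each other. With 3 libraries per line and treatment, the part of susceptible 5 in this spread was not tested.

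**Figure D1:**
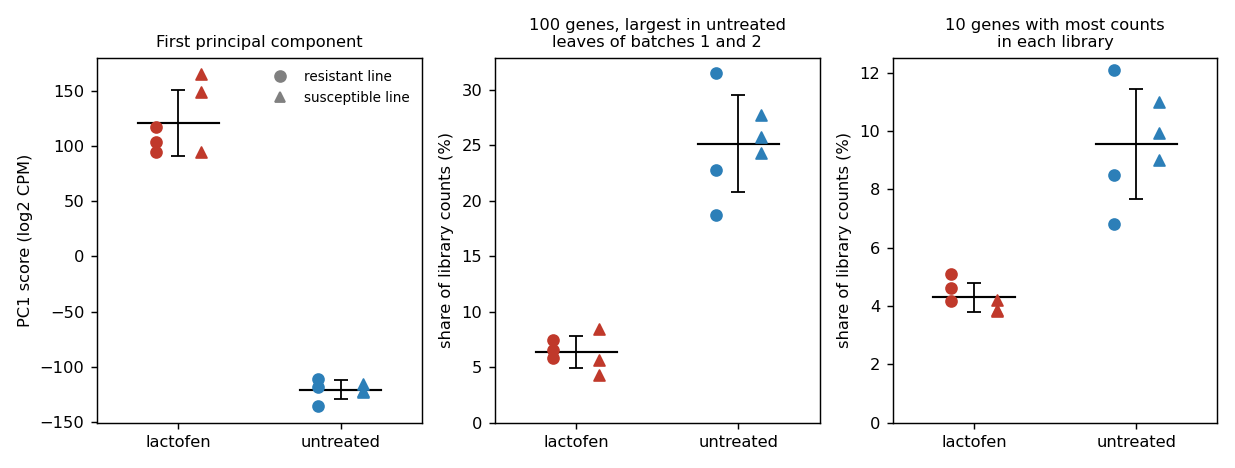
First principal component score of log2 CPM (left), share of library counts in 100 genes chosen in untreated leaves of batches 1 and 2 (middle, %) and share in the 10 genes with most counts in each library (right, %), 1 point per library, with the mean and SD of 6 as bars. Lactofen libraries lie above 94.7 on the first component and hold 4.27 to 8.41% of their counts in the 100 genes, while untreated libraries lie below -110.9 and hold 18.7 to 31.5%.

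The composition of the leaf RNA turned over. The 100 genes that took the largest shares of counts in untreated leaves of batches 1 and 2, libraries that the test did not use, held 6.56, 7.49 and 5.83% of the counts in resistant lactofen libraries 1, 4 and 8, and 5.62, 8.41 and 4.27% in susceptible lactofen libraries 3, 5 and 7. In untreated leaves of batch 3 the same genes held 22.8, 18.7 and 31.5% in resistant libraries 1, 4 and 8, and 27.7, 24.3 and 25.7% in susceptible libraries 3, 5 and 7. All lactofen libraries lay below all untreated libraries. The share was 6.36 ± 1.46% after lactofen and 25.1 ± 4.36% in untreated leaves (SD, n = 6 each), a difference of -18.8 percentage points. An exact two-sided permutation test within lines gave p = 0.005, the smallest p that its 400 arrangements can give. The test exchanges libraries freely within a line, although plant patterns recurred between treatments and in susceptible lactofen 3 and 7. In bulk leaf RNA, fewer cells of a type and less RNA per cell cannot be told apart, and a share falls when other genes take more of the counts.

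Of these 100 genes, 74 were called lower after lactofen, 3 higher and 23 neither, in edgeR's quasi-likelihood test with an adjusted p under 0.05. Their median log2 change was -2.35 (range -5.68 to 1.58), where the median over all genes tested was 0.01. A fall of 4-fold or more was seen in 59 of them, and a rise of that size in 0. Over all genes tested, 29.7% were called lower and 30.9% higher.

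The concentration of counts in a few genes fell with it. The 10 genes with most counts in each library held 3.83 to 5.11% after lactofen and 6.8 to 12.1% in untreated leaves, with no overlap. The means were 4.3 ± 0.488% after lactofen and 9.56 ± 1.88% in untreated leaves (SD, n = 6 each), and the exact permutation test again gave its smallest p, 0.005. Gene by gene the 2 rankings had little in common. Of the 100 genes with the largest mean share of counts after lactofen, 17 were among the 100 largest of untreated leaves of batch 3. Untreated leaves of batch 3 shared 78 of their 100 with untreated leaves of batches 1 and 2, and lactofen leaves shared 20 with those. Among the 10 largest, lactofen and untreated leaves shared 2. Of the 10 largest after lactofen, 8 were called higher and 1 lower, and of the 10 largest in untreated leaves 0 were called higher and 9 lower. Over all genes tested 30.9% were called higher and 29.7% lower. Each list was picked by high counts in libraries that also made the calls, which favours these directions, so the counts carry no test.

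A difference in the number of genes detected was not found beyond the spread of libraries. At 1 CPM or more, 16437 ± 225 genes were detected after lactofen and 16328 ± 228 in untreated leaves (SD, n = 6 each), a difference of 110 (exact permutation test within lines, p = 0.405). At 5 CPM the sign turned, with 12755 ± 268 genes after lactofen and 13038 ± 450 in untreated leaves (difference -282, exact permutation p = 0.235).

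In the fit with line as a block, 11940 of the 19689 genes tested (60.6%) were called at an edgeR adjusted p under 0.05. Of these, 6092 (30.9% of the tested) were higher after lactofen and 5848 (29.7%) lower. The median absolute log2 change over all genes tested was 1.11. Higher and lower genes were near balance in number but not in size. A change of 2-fold or more was reached by 4518 called genes that were higher and 4827 that were lower, and one of 4-fold by 2698 and 2576. Past 8-fold there were 1768 higher and 1073 lower genes, past 16-fold 1181 and 384, past 32-fold 772 and 114, and past 64-fold 460 and 29. Large changes were therefore mostly rises, and the largest falls were few.

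**Figure D2:**
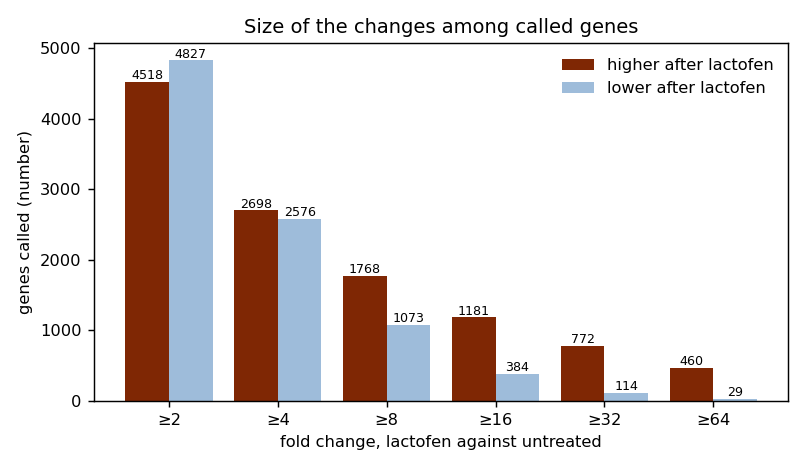
Number of genes called higher (dark bars) and lower (light bars) after lactofen by the smallest fold change they reached; each class holds those to its right. Lower genes are the more numerous at 2-fold (4827 against 4518), and higher genes outnumber lower ones by 460 to 29 at 64-fold.

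The calls account for most of the RNA counted. Genes called higher held 61.4 ± 4.34% of the counts after lactofen and 14.4 ± 1.87% in untreated leaves (SD, n = 6 each). Genes called lower held 14.4 ± 3.19% after lactofen and 61.5 ± 5.22% in untreated leaves. Genes not called held 24.1 ± 1.32% after lactofen and 24.1 ± 3.42% in untreated leaves. These shares describe the genes that the same libraries selected, and they carry no test.

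The 6 lactofen libraries lay wholly above the 6 untreated libraries for 3960 genes (20.1% of those tested) and wholly below for 3667 (18.6%), together 38.7%. Among called genes this held for 3950 of the higher ones (64.8%) and 3659 of the lower ones (62.6%). The share of genes called was smallest among genes with few counts. The genes were ordered by mean level over the 12 libraries and cut into 10 classes of equal size. Class 1 (0.0666 to 0.81 CPM) had 31.7% of its genes called, and class 10 (105 to 18352 CPM) had 76.3%. In class 10, 23.2% of genes rose and 18.9% fell by 4-fold or more. Lower genes outnumbered higher ones most in class 4 (5.47 to 9.9 CPM), at 37% against 21.3%, and higher genes outnumbered lower ones most in class 9 (56.4 to 105 CPM), at 46.7% against 26.3%.

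Few genes went between silent and active in every plant. Of the 26353 gene models in the table, 4012 had 0 counts in all 6 lactofen libraries, 4483 had 0 in all 6 untreated libraries and 3549 had 0 in all 12. Models with 0 counts in every untreated library and a count in some lactofen library numbered 934, and models silent after lactofen with a count in some untreated library numbered 463. A count of 0 allows up to 3 counts, or 0.0469 to 0.0883 CPM in an untreated library, for counting error only. No model was at 0 counts in every library of one treatment and at 1 CPM or more in every library of the other. With under 0.1 CPM in place of 0, 13 models were off in untreated leaves and at 1 CPM or more in every lactofen library, and 4 showed the reverse. At 1 CPM or more, 14611 genes were present in every lactofen library, 14872 in every untreated library and 13488 in all 12.

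Genes were named from those called, with a mean of at least 10 CPM in the higher group and lactofen and untreated libraries apart. Among these, the gene with the largest rise in mean CPM was AmaPaChr09Ag155430. It stood at 4101, 3375 and 3841 CPM in resistant lactofen leaves 1, 4 and 8, and at 5413, 2929 and 6330 CPM in susceptible lactofen leaves 3, 5 and 7. Untreated leaves held 9.16, 9.54 and 64.3 CPM of it in resistant plants 1, 4 and 8, and 47.2, 35.4 and 36.6 CPM in susceptible plants 3, 5 and 7. The lowest lactofen library was far above the highest untreated one, and among untreated plants resistant 1 and 4 stood below the other 4. Means were 4332 ± 1291 CPM after lactofen and 33.7 ± 21.5 CPM in untreated leaves (SD, n = 6 each), a 129-fold ratio of means, with a fitted log2 change of 7.02 ± 0.6 SE (edgeR adjusted p = 2.3e-06). By share of counts the gene ranked 4 after lactofen, with 0.433% of all counts, and 5663 in untreated leaves, with 0.00315%.

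The largest fall in mean CPM was that of AmaPaChr01Ag016360, which had the largest share of counts of all genes in untreated leaves, 3.23%, and ranked 6 after lactofen, with 0.354%. Lactofen leaves held 2939, 2346 and 2071 CPM in resistant plants 1, 4 and 8, and 7843, 3185 and 3126 CPM in susceptible plants 3, 5 and 7. Untreated leaves held 30734, 20656 and 43575 CPM in resistant plants 1, 4 and 8, and 43057, 29980 and 30710 CPM in susceptible plants 3, 5 and 7. Susceptible 3 was the highest of the lactofen libraries, yet stood below every untreated library. The log2 change was -3.28 ± 0.4 SE (edgeR adjusted p = 2.9e-05), with means of 3585 ± 2133 CPM after lactofen and 33119 ± 8772 CPM in untreated leaves (SD, n = 6 each).

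The fall with the largest log2 change was found for AmaPaChr02Ag047110. It was at 1.46, 1.64 and 1.12 CPM in resistant lactofen leaves 1, 4 and 8 and at 3.26, 0.961 and 0.302 CPM in susceptible lactofen leaves 3, 5 and 7. Untreated values were 183, 90.5 and 140 CPM in resistant plants 1, 4 and 8 and 249, 128 and 196 CPM in susceptible plants 3, 5 and 7. The groups were apart by more than an order of magnitude, and the log2 change was -6.8 ± 0.55 SE (edgeR adjusted p = 1.7e-06).

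The rise with the largest log2 change, AmaPaChr13Ag211040, was carried by 1 library more than the others. Lactofen values were 4.41, 2.53 and 9.45 CPM in resistant plants 1, 4 and 8 and 2.81, 64.7 and 7.58 CPM in susceptible plants 3, 5 and 7. Untreated leaves held at most 4 counts of it per library, with 0 counts in resistant 1, resistant 4 and susceptible 3 and 0.0845 CPM in the highest library, susceptible 5. Every lactofen library was above every untreated library. The fitted log2 change of 8.68 ± 1.09 SE (edgeR adjusted p = 3.5e-05) rests on these few untreated counts and was 7.34 without susceptible lactofen 5 (adjusted p = 5e-05).

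**Figure D3:**
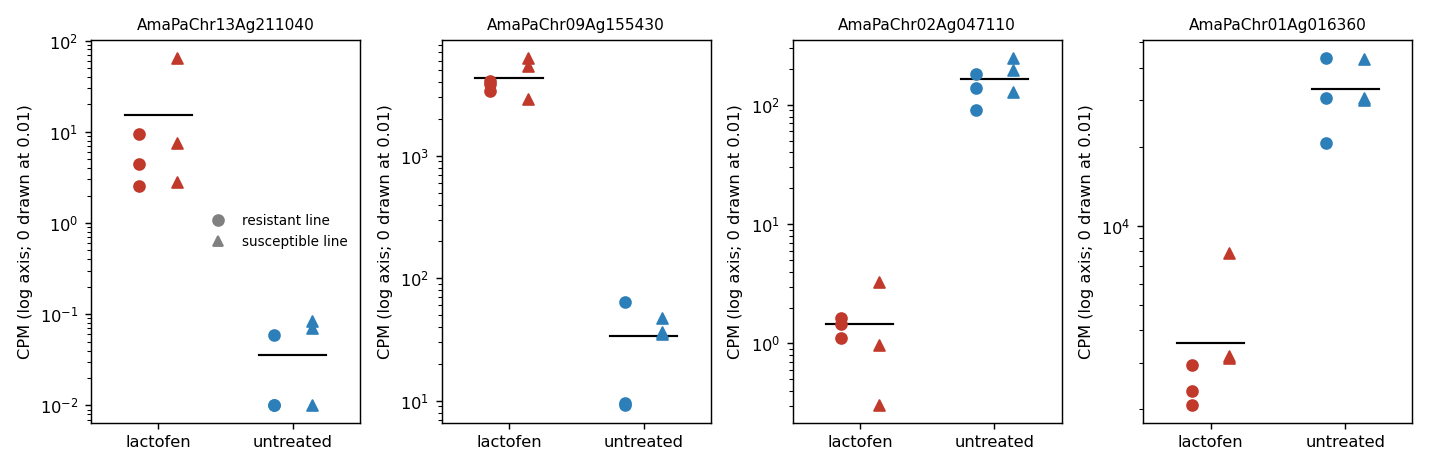
CPM on a log axis of the 4 genes named for the comparison of lactofen with untreated leaves, 1 point per library (circles resistant, triangles susceptible), with the mean of 6 as a line and 0 drawn at 0.01. In each panel the 6 lactofen libraries and the 6 untreated libraries do not overlap, and for AmaPaChr13Ag211040 susceptible 5 stands at 64.7 CPM above the other lactofen libraries.

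The change was then read within each line, since the 2 lines share no library. Fitted alone, the resistant line had 8588 of 18738 genes called (45.8%; 4346 higher, 4242 lower) and the susceptible line 8595 of 18911 (45.4%; 4492 higher, 4103 lower). Of the 6092 genes called higher over both lines, 5777 passed the filter on low counts in each line alone, and 5775 of these had a positive log2 value in each. Of the 5848 called lower, 5692 passed it in each line, all with a negative value in each. The call over both lines favours genes of 1 sign in both, so these counts carry no test. Calls in each line alone were made for 3310 of the higher and 3138 of the lower genes, while 922 and 944 were called in neither line alone. Among genes called higher over both lines the median log2 change was 1.5 in the resistant line and 1.81 in the susceptible line, and among genes called lower it was -1.71 and -1.92 in the same order. Susceptible lactofen 3 and 7, which matched 1 plant pattern, both enter the susceptible values.

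**Figure D4:**
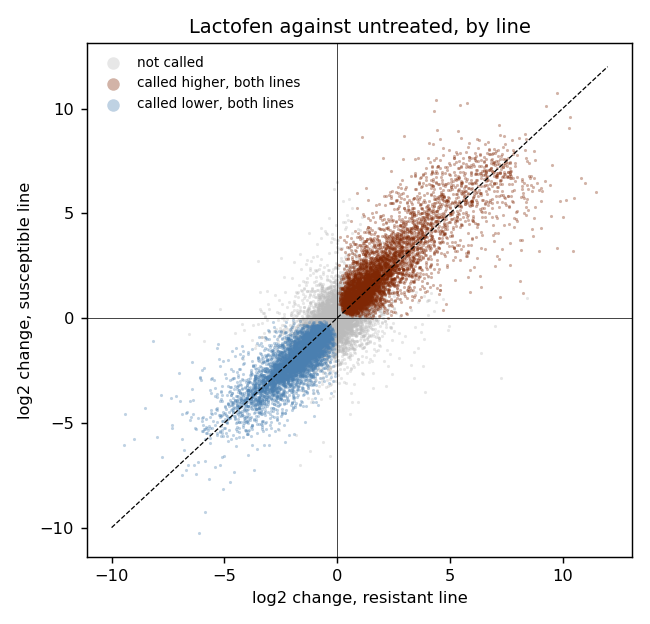
Fitted log2 change after lactofen in the resistant line (x axis) and the susceptible line (y axis), 1 point per gene, coloured by the call over both lines, with the line of equal change dashed. Called genes fall along the diagonal: 5775 of 5777 higher genes and 5692 of 5692 lower genes that passed the filter on low counts in each line have the same sign in both.

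Genes chosen in one line moved the same way in every library of the other. The 4491 genes called higher in the susceptible line alone had median log2 changes of 1.54, 1.43 and 1.63 in resistant lactofen libraries 1, 4 and 8, measured as log2(CPM + 0.5) from the mean of the resistant untreated libraries, and 95.3 to 98% of them were above that mean. In the 3 resistant untreated libraries the same medians ran from -0.09 to 0.06. Each of these libraries is part of the mean it is measured from, which draws its value toward 0. The 4103 genes called lower in the susceptible line had medians of -1.72, -1.6 and -1.72 in resistant lactofen libraries. In the other direction, the 4346 genes called higher in the resistant line had medians of 1.89, 1.58 and 1.88 in susceptible lactofen libraries 3, 5 and 7, and the 4242 called lower had medians of -2.04, -1.55 and -2.26. Susceptible 5 had the smallest of the 3 values both times.

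By share of counts, the genes called higher in the susceptible line held 50.3 ± 2.11% in resistant lactofen libraries and 10.1 ± 1.71% in resistant untreated libraries (SD, n = 3 each). Those called lower there held 11.1 ± 1.11% in resistant lactofen libraries and 50.1 ± 8.84% in resistant untreated libraries. The genes called higher in the resistant line held 52.7 ± 4.97% in susceptible lactofen libraries and 9.83 ± 0.432% in susceptible untreated libraries. Those called lower there held 10.6 ± 3.83% in susceptible lactofen libraries and 54.4 ± 1.36% in susceptible untreated libraries. The ranges of lactofen and untreated libraries did not overlap in any of these.

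The lines differed in their response for 7 genes (0.0356% of 19689; 4 with the larger value in the resistant line, 3 with the smaller), while 1603 had an unadjusted p under 0.05 in edgeR. The count moved with the fit, to 467 with all 48 libraries in 1 fit and 202 in DESeq2. With the replicate number as a block it was 0, although numbers do not pair all susceptible libraries. Neither gene described next was called under that block. The count was 225 without susceptible lactofen 5, which leaves susceptible lactofen 3 and 7 of 1 plant pattern, and 26 without resistant untreated 8. It was 4 without resistant lactofen 4 or susceptible untreated 5, and 2 without resistant untreated 1, susceptible untreated 3 or susceptible untreated 7. A small count does not show that the lines responded alike.

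Among the 7, AmaPaChr07Ag120070 had the largest positive difference. It was at 139, 163 and 116 CPM in resistant lactofen leaves 1, 4 and 8 and at 4.38, 4.23 and 6.55 CPM in susceptible lactofen leaves 3, 5 and 7. Untreated leaves held 2.55, 0.907 and 3.59 CPM in resistant plants 1, 4 and 8 and 1.84, 2.11 and 2.32 CPM in susceptible plants 3, 5 and 7. Resistant lactofen leaves stood apart from all other libraries, and the difference in log2 change was 4.63 ± 0.59 SE (edgeR adjusted p = 0.025). The difference stayed between 4.24 and 5.1 when single libraries were left out, but the call was lost without 9 of the 12, with adjusted p-values up to 0.13. With susceptible lactofen 3 and 7 summed it was 4.66 (edgeR adjusted p = 0.093).

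The largest negative difference was that of AmaPaChr03Ag055680, whose fitted changes had opposite signs in the 2 lines. Resistant lactofen leaves 1, 4 and 8 held 5.41, 3.47 and 4.6 CPM, and susceptible lactofen leaves 3, 5 and 7 held 36.8, 39.5 and 35.1 CPM. Resistant untreated leaves held 21.7, 22.1 and 23.2 CPM, and susceptible untreated leaves 14.4, 20 and 12.4 CPM. The difference was -3.56 ± 0.34 SE (edgeR adjusted p = 0.0046), from fitted log2 changes of -2.31 in the resistant and 1.23 in the susceptible line. It was -3.61 with susceptible lactofen 3 and 7 summed (edgeR adjusted p = 0.018).

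The other treatments have untreated plants of their own, so their responses share no library with that to lactofen. Atrazine stops photosynthetic electron flow at photosystem II, and chlorsulfuron inhibits acetolactate synthase, which makes precursors of branched-chain amino acids. As for the others, 2,4-D mimics auxin, and mesotrione inhibits an enzyme on the way to plastoquinone and tocopherols. Doses are not given, herbicide and batch cannot be told apart, and the values are therefore set side by side without an order of strength. In 1 fit of all 48 libraries, over both lines and 20645 genes tested, 10240 genes (49.6%) were called after atrazine, 9628 (46.6%) after chlorsulfuron, 3350 (16.2%) after 2,4-D and 14 (0.0678%) after mesotrione (edgeR adjusted p under 0.05). Mesotrione had 1398 genes at an unadjusted p under 0.05.

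Most genes called higher after atrazine, chlorsulfuron or 2,4-D were called higher after lactofen, and most genes called lower after atrazine or chlorsulfuron were called lower. This did not hold for genes called lower after 2,4-D. Lactofen calls here are those of the 12-library fit (11940), and calls after the other herbicides those of the 48-library fit. Lactofen itself had 13925 calls in the 48-library fit, so genes not shared between herbicides depend in part on the unlike fits. Of the 5417 genes called higher after atrazine and tested for lactofen, 65.7% were called higher and 6.17% lower after lactofen; these were 58.5% of the lactofen-higher genes. Of the 4681 called lower after atrazine, 64.8% were lower and 5.28% higher after lactofen, and these were 51.9% of the lactofen-lower genes. For chlorsulfuron, 71% of the 5238 higher genes were higher after lactofen (61% of the lactofen-higher genes) and 2.96% lower, and 73.2% of the 4287 lower genes were lower (53.7% of the lactofen-lower genes) and 3.38% higher. For 2,4-D, 70.8% of the 1758 higher genes were higher after lactofen (20.4% of the lactofen-higher genes) and 8.19% lower. Of the 1569 genes lower after 2,4-D, 44.5% were lower after lactofen (11.9% of the lactofen-lower genes) and 16.4% higher. Over all genes tested, 29.7% were called lower and 30.9% higher after lactofen. The 1 gene higher after mesotrione was called lower after lactofen, and of the 13 lower after mesotrione 2 were called lower and 1 higher. The median log2 change after lactofen was 1.1 for the atrazine-higher genes, 1.17 for the chlorsulfuron-higher genes and 1.48 for the 2,4-D-higher genes, against 0.01 over all genes tested. For the atrazine-lower genes this median was -1.44, for the chlorsulfuron-lower genes -1.77 and for the 2,4-D-lower genes -0.44. Of the genes called higher after lactofen, 1374 (22.6%) were called higher after none of the other 4 herbicides, and of those called lower 1761 (30.1%) were called lower after none.

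The difference between the lactofen and the atrazine response was called for 9338 of 20645 genes (45.2%), 4202 positive and 5136 negative (lactofen minus atrazine). A negative difference can be a larger fall after lactofen as well as a smaller rise, so its sign does not order the responses by size. When total counts replaced TMM, the atrazine split turned to 4532 positive and 4312 negative. Against chlorsulfuron the difference was called for 8253 genes (40%), 3652 positive and 4601 negative. That split turned to 4149 positive and 4063 negative with the size factors of DESeq2, and to 4445 and 4334 in DESeq2. Without susceptible untreated 5 the split was 3982 and 3978, and without resistant untreated 8 it was 4023 and 4023. Many of the genes that differed were called after only 1 of the herbicides. The same libraries gave the calls and the differences, which favours such genes, so the counts by class carry no test. Of 2284 genes called higher after lactofen and not called after atrazine, 1583 (69.3%) differed. Of 2480 called lower after lactofen only, 2025 (81.7%) differed. Of 1522 genes called higher after atrazine and not called after lactofen, 880 (57.8%) differed. Of 1400 called lower after atrazine only, 673 (48.1%) differed. Against chlorsulfuron the same classes gave 1421 of 2228 (63.8%), 1904 of 2554 (74.5%), 592 of 1364 (43.4%) and 374 of 1003 (37.3%). Of 3561 genes called higher by both lactofen and atrazine, 1532 (43%) differed, 1374 of them with the larger rise after lactofen. Of 3034 called lower by both, 1518 (50%) differed, 1425 of them with the larger fall after lactofen. Over all genes tested 45.2% differed. Calls in opposite directions numbered 247 genes higher after lactofen and lower after atrazine and 334 lower after lactofen and higher after atrazine. With chlorsulfuron, 1532 of 3719 genes higher after both differed (41.2%), 1490 with the larger rise after lactofen. Of 3139 genes lower after both, 1634 differed (52.1%), 1615 with the larger fall after lactofen. Over all genes tested 40% differed. Opposite calls numbered 145 for higher after lactofen and 155 for lower. Since doses are not given and herbicide and batch cannot be told apart, these counts do not order the herbicides by strength.

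AmaPaChr09Ag155430, which rose most in CPM after lactofen, gives an example of a shared rise. On the scale of the 48-library fit, which differs slightly from that above, it stood at 4326 ± 393 CPM in resistant and 5659 ± 2042 CPM in susceptible lactofen leaves, against 32.9 ± 38.1 and 46.5 ± 7.8 CPM in untreated leaves of batch 3 in the same order of lines. After chlorsulfuron it was at 968 ± 524 and 1909 ± 974 CPM and after atrazine at 144 ± 50.4 and 371 ± 480 CPM, against 19.7 ± 15 and 11 ± 2.61 CPM in untreated leaves of batch 2, resistant line before susceptible each time (SD, n = 3). The log2 changes of 6.53 ± 0.67 SE after chlorsulfuron and 3.97 ± 0.6 SE after atrazine were called, as was 3.23 ± 0.58 SE after 2,4-D, while mesotrione gave 1.12 ± 0.54 SE (edgeR adjusted p = 0.72). The fitted difference, lactofen minus atrazine, was 3.01 ± 0.77 SE (edgeR adjusted p = 0.0016), and lactofen minus chlorsulfuron 0.45 ± 0.75 SE (adjusted p = 0.68). Both compare treatments of different batches at doses not given.

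The other genes named above moved less uniformly. AmaPaChr02Ag047110 fell after atrazine (log2 -2.77 ± 0.49 SE) and chlorsulfuron (-4.29 ± 0.53 SE) as well, and its values after 2,4-D and mesotrione were -0.58 and 0.03. Its level in untreated leaves of batch 3 was 161 ± 52.6 CPM in resistant and 223 ± 72.2 CPM in susceptible plants, above the 29.3 ± 19.3 and 44.1 ± 2.18 CPM of batch 2 (SD, n = 3). AmaPaChr01Ag016360 had log2 changes of -2.13 ± 0.32 SE after chlorsulfuron and -0.9 ± 0.31 SE after atrazine, both called. Its level in untreated leaves was 37223 ± 14085 CPM in resistant and 40464 ± 8797 CPM in susceptible plants of batch 3. In batch 2 it was 18364 ± 3571 and 16815 ± 1128 CPM in the same order of lines (SD, n = 3). Lactofen leaves held 2813 and 5461 CPM, chlorsulfuron leaves 4687 and 3433 CPM and atrazine leaves 7703 and 11460 CPM on average. The part of the untreated level in these changes was not tested. AmaPaChr13Ag211040 rose after atrazine (6.58 ± 1.25 SE, edgeR adjusted p = 8.3e-05), where it was at 62.4 ± 68 CPM in resistant and 97.5 ± 166 CPM in susceptible leaves, and its value after chlorsulfuron was 1.62 ± 1.04 SE (adjusted p = 0.21).

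The largest differences between herbicides, among called genes with a group mean of at least 10 CPM, rested on uneven libraries. AmaPaChr08Ag146890 had the largest positive difference from atrazine, 8.96 ± 1.73 SE (edgeR adjusted p = 7e-05). It was at 0.682, 6.14 and 63 CPM in resistant lactofen leaves 1, 4 and 8 and at 125, 7.53 and 518 CPM in susceptible lactofen leaves 3, 5 and 7, against 0 to 9.93 CPM in untreated leaves. Its lactofen and untreated libraries overlapped. Its level on the 48-library scale was at most 0.08 CPM in every atrazine library. Untreated leaves of batch 2 held 0.405 ± 0.0699 CPM in resistant and 2.52 ± 3.03 CPM in susceptible plants (SD, n = 3). The difference thus joined a fitted fall after atrazine, -4.59 ± 1.4 SE (edgeR adjusted p = 0.0064), to a rise after lactofen. That rise was 4.39 ± 1.47 SE in the 12-library fit (edgeR adjusted p = 0.022). AmaPaChr05Ag085850 had the largest positive difference from chlorsulfuron, 9.88 ± 1.86 SE (edgeR adjusted p = 7.4e-05), with 0.0455, 1.92 and 42.8 CPM in resistant lactofen leaves 1, 4 and 8, 10.7, 2.15 and 122 CPM in susceptible lactofen leaves 3, 5 and 7, and at most 0.38 CPM in untreated leaves. Chlorsulfuron libraries held 0 to 0.192 CPM of it and untreated libraries of batch 2 held 0.0369 to 0.377 CPM on the 48-library scale. In both genes susceptible 7 was highest and resistant 1 lowest after lactofen. Susceptible lactofen 3 and 7 lay far apart in both genes although they matched 1 plant pattern.

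The largest negative differences came from untreated leaves of 2 plants. AmaPaChr05Ag093750 was at 36.3 CPM in resistant untreated 1 and 34 CPM in susceptible untreated 3, and at 0.0422 to 0.188 CPM in the other untreated libraries, while lactofen libraries held 0.0641 to 1.03 CPM. On the 48-library scale it was at 0 to 0.142 CPM in atrazine libraries and at 0 to 0.065 CPM in untreated libraries of batch 2, so its fitted atrazine response, 2.51 ± 2.14 SE, is a ratio of values at or near 0. The fitted difference from that response, -8.23 ± 2.66 SE (edgeR adjusted p = 0.011), depends on these few counts and is no bound. It was -4.98 without resistant untreated 1 (adjusted p = 0.091) and -4.77 without susceptible untreated 3 (adjusted p = 0.11). It was also lost without resistant atrazine 7 (-6.18, edgeR adjusted p = 1) and without susceptible atrazine 5 (-7.67, adjusted p = 0.062). AmaPaChr14Ag213240 was at 86.2 CPM in resistant untreated 1 and 139 CPM in susceptible untreated 3, at 0.344 to 0.591 CPM in the other untreated libraries and at 0.165 to 0.89 CPM after lactofen. Chlorsulfuron libraries held 0 to 0.544 CPM and untreated libraries of batch 2 held 0 to 0.256 CPM of it on the 48-library scale. Its fitted difference from the chlorsulfuron response, -8.47 ± 2.34 SE (edgeR adjusted p = 0.0041), was -5.41 without resistant untreated 1 (adjusted p = 0.043) and -5.22 without susceptible untreated 3 (adjusted p = 0.048). The call was lost without susceptible chlorsulfuron 5 (-7.18, edgeR adjusted p = 0.076). In both genes the lactofen libraries whose patterns matched those untreated plants, resistant 1 and susceptible 3 and 7, were low.

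Neighbouring genes by identifier number were then compared. With 60.6% of genes called, many neighbours are both called. Of 7393 neighbouring pairs of tested genes that were both called, 54.4% moved in the same direction, where the shares of higher and lower genes alone give 50%. The longest run of lower genes held 8, and the longest run of higher genes held 18, all with identifiers of chromosome group 4, the next longest holding 9. The run of 18 was picked for its length after the values were seen and carries no test of its own. Reads of near-identical copies could be shared among such neighbours.

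The 18 genes of the run differed widely in size of change, with log2 values from 0.54 to 8.18. Lactofen and untreated libraries were apart for 6 of the 18. Among all genes called higher 64.8% were apart, and over all genes tested 20.1% were apart and higher. The 7 that averaged under 0.2 CPM in untreated leaves had log2 values of 6.95 to 8.18 and means of 2.58 to 26.1 CPM after lactofen. The other 11 averaged 4.73 to 571 CPM after lactofen and 2.31 to 184 CPM in untreated leaves. Summed over the 7, resistant lactofen libraries 1, 4 and 8 held 2.73, 8.57 and 57.1 CPM and susceptible lactofen libraries 3, 5 and 7 held 156, 40.7 and 257 CPM. Untreated libraries held 0, 0 and 0.648 CPM in resistant plants 1, 4 and 8 and 0.644, 0.591 and 0.844 CPM in susceptible plants 3, 5 and 7. All lactofen libraries were above all untreated ones, but they spanned 2.73 to 257 CPM among themselves. On the 48-library scale the 7 genes summed to 112 ± 133 CPM in resistant and 38.2 ± 32.5 CPM in susceptible leaves after atrazine and to 19.4 ± 14 and 40.5 ± 16.5 CPM after chlorsulfuron, against 2.95 ± 1.61 and 1.11 ± 0.585 CPM in untreated leaves of batch 2, resistant line before susceptible (SD, n = 3).

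**Figure D5:**
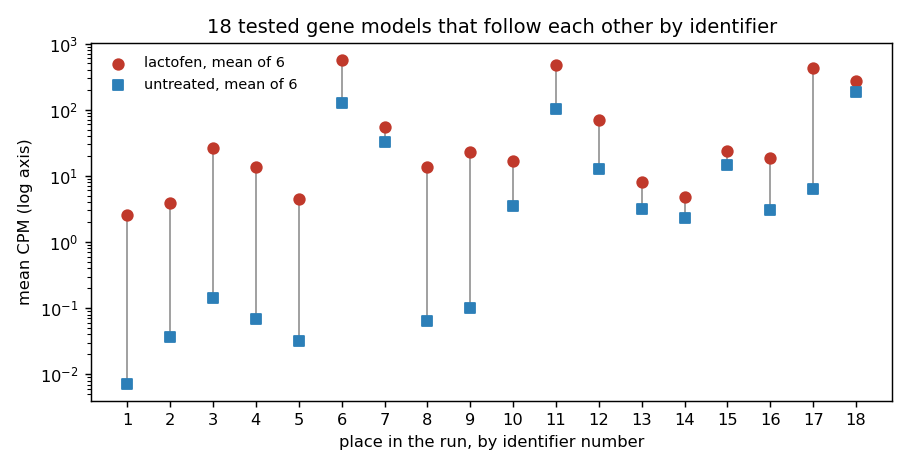
Mean CPM on a log axis of the 18 neighbouring genes of the longest run called higher after lactofen, in order of identifier number, with circles for the mean of 6 lactofen libraries and squares for the mean of 6 untreated libraries. Every circle lies above its square, and 7 genes stand under 0.2 CPM in untreated leaves and at 2.58 to 26.1 CPM after lactofen.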

How the data were processed

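DESeq2, FastQC, STAR and Trimmomatic are listed, without role or version, per the submitters' processing notes. The genome build, the gene annotation and how strand was treated were not given in the sources used here. Libraries were stranded polyA, sequenced as read pairs, per the labels' protocols. The authors deposited whole-number counts per gene model, unscaled, for 26353 models (24873 mRNA, 1480 tRNA); a line without a gene name held 0 counts (0% of all) and was left out. Of the counts above 0 in the 12 libraries 99.4% were even, so fragment counts (halved, rounded up) were an alternative. Near-identical or overlapping genes may share reads.

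The 12 libraries of batch 3 were tested with edgeR 4.0.16 in R 4.3.3 (TMM factors, default low-count filter by group, robust quasi-likelihood F test, line as a block, 9 residual degrees of freedom), with Benjamini-Hochberg adjustment over 19689 genes and a threshold of 0.05. TMM factors ran from 0.77 (resistant untreated 8) to 1.17. The line difference used group means of the same libraries, and the differences from atrazine and chlorsulfuron all 48 libraries (16 group means, 32 residual degrees of freedom). Single values per library had exact permutation tests within lines. The edgeR comparisons with untreated leaves, between lines and with atrazine were tested on simulated data. The simulation changed few genes, equally up and down, in independent libraries. It therefore does not cover a response of most genes or plants that recur. Nothing in the labels says that libraries of a group are separate plants beyond their numbers, so p-values measure the spread between these libraries, and intervals and floors cover counting error only.

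Named genes were called, had lactofen and untreated libraries apart and reached a mean of 10 CPM in the higher group; in each direction the largest log2 change and the largest difference in mean CPM were taken, and for each difference between responses the largest called difference in each direction. Comparisons, members and lists were chosen with earlier results of these data known. Lists of genes by product name were not used here, since the files pair no identifier with a name, and no sequence is printed. Deviations from group means correlated at 0.16, 0.26 and 0.22 between same-numbered lactofen and untreated libraries of the resistant line and at 0.17 (number 3), 0.1 (number 5) and -0.22 (number 7) of the susceptible line, so numbers were not treated as pairs.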

Additional observations from a re-analysis of the deposited data

Results flagged for a closer look

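The 10 named genes and the 3 library measures, after lactofen and in untreated leaves, gave 26 groups of 6 libraries. In 5 of them a library stood far from the others. The cut used would flag about 1 in 20 groups of normally distributed values. CPM values of both lines, and of genes picked for large changes, need not follow that rate, so the count carries no test. AmaPaChr13Ag211040 was at 64.7 CPM in susceptible lactofen 5 and at 2.53 to 9.45 CPM in the other lactofen libraries. AmaPaChr01Ag016360 was at 7843 CPM in susceptible lactofen 3, with the next highest lactofen library at 3185 CPM. AmaPaChr08Ag146890 was at 518 CPM in susceptible lactofen 7, with the next at 125 CPM in susceptible lactofen 3. AmaPaChr05Ag085850 was at 122 CPM in susceptible lactofen 7, with the next at 42.8 CPM in resistant lactofen 8. AmaPaChr05Ag093750 was at 1.03 CPM in resistant lactofen 4, with the others at 0.0641 to 0.207 CPM. Why single libraries stood apart was not tested.

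The lactofen response differed between the lines for 7 genes by the edgeR interaction test. The named ones were AmaPaChr07Ag120070, by 4.63 on the log2 scale (resistant minus susceptible), and AmaPaChr03Ag055680, by -3.56. The part of the plant patterns in these differences was not tested beyond the summed libraries given above.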

How the results depend on the processing

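The number of genes called after lactofen ran from 8588 (resistant line alone) to 13925 (all 48 libraries in 1 fit) over 23 alternatives, and from 11267 to 12123 without single libraries. Lower genes outnumbered higher ones when a 2-fold change was also required (4518 higher, 4827 lower) and in the fit of 48 (6948, 6977). The 4 genes named for lactofen against untreated leaves were called with the same sign in all 22 settings each, DESeq2 1.42.0 included. The number of genes that differed between lines was 11 with total counts in place of TMM, 202 in DESeq2 and 467 in the fit of 48, and 2 to 225 without single libraries. The difference from atrazine was called for 7820 genes with same-pattern libraries summed and 8710 to 10083 without single libraries, and that from chlorsulfuron for 7122 and 7759 to 9062. With total counts the median difference from atrazine over all genes was 0.1, against -0.02, and the split of its direction turned, as given above. The difference in genes detected was 32.6 to 160 without single libraries and reversed to -282 at 5 CPM. The causes were not tested. The other 2 library measures kept their sign in all 16 settings each, at -5.82 to -4.75 and -20 to -17.5 percentage points without single libraries.

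With the replicate number as a block, although numbers do not pair all susceptible libraries, the lactofen count was 11447, the difference from atrazine 10742 and from chlorsulfuron 9587. The line difference then had 0 genes in edgeR, with 1466 at an unadjusted p under 0.05 and 202 called by DESeq2 without the block. Under the block 4 named genes were not called: AmaPaChr07Ag120070 (4.81, edgeR adjusted p = 0.22), AmaPaChr03Ag055680 (-3.61, 0.18), AmaPaChr05Ag093750 (-3.94, 0.28) and AmaPaChr14Ag213240 (-3.91, 0.27). Blocked differences were 110 genes detected (exact permutation p = 0.594), -5.27 and -18.8 percentage points (p = 0.0312 each, the smallest possible). Of the genes in class 1 by mean level, 31.7% were called; the part of depth in this was not tested.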

Other observations

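Calls after lactofen were spread over all 17 chromosome groups that the identifiers name, with 57.2 to 63.8% of the tested genes called in each and median log2 changes of -0.08 to 0.07. Of the 127 tested genes whose identifiers carry group 0, 25.2% were called. Of the 6 tRNA models that passed the filter on low counts, 0 were called. Between the 1374 genes called higher after lactofen alone and the 850 called higher after 3 other herbicides lay 1761 shared with 1 other herbicide and 2107 shared with 2. Among lower genes 1789 were shared with 1 other herbicide, 1811 with 2, 486 with 3 and 1 with all 4.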
